A study of Homo sapiens with 18 samples.

Results

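Transcripts of glycosyltransferases, which build the sugar chains of proteins and lipids, and of the mannosidases that trim them were measured by RNA sequencing in LNCaP cells. The members are the genes of the count table whose symbols belong to the GALNT, ST3GAL, ST6GAL (with ST6GALNAC), ST8SIA, B3GNT, B3GALT, B4GALT, FUT, MGAT and MAN1 or MAN2 series. Of 20145 genes in the table, 91 symbols matched, and the 65 with at least 10 counts in at least 3 of the 18 libraries are described here. They comprise 62 protein-coding genes and the 3 long noncoding RNAs B4GALT1-AS1, MAN1B1-DT and ST8SIA6-AS1, which match only by name. LNCaP is an androgen-responsive human prostate adenocarcinoma line derived from a lymph node metastasis. Each of 6 conditions had 3 libraries of polyadenylated RNA after 72 h in serum-containing medium. Cells received the vehicle DMSO alone or a compound: 0.2 µM of ACBI, 1 µM of 2-77, 2 µM of BD98, or 10 µM of either P-16 or ENZA. The abbreviation ENZA stands for enzalutamide, an antagonist of the androgen receptor, and the labels name no target of the other 4 compounds. All groups are 1 cell line at 1 time, and nothing in the labels says that replicates came from separate cultures, so every p measures the spread between these libraries. P-16 and ENZA were given at the same dose, whereas all other contrasts between compounds also compare doses.

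Glycans are assembled step by step in the endoplasmic reticulum and Golgi apparatus. GALNT enzymes start mucin-type O-glycans by adding N-acetylgalactosamine to serine or threonine, and galactosyltransferases, N-acetylglucosaminyltransferases, fucosyltransferases and sialyltransferases extend or cap the chains. N-glycans arrive on proteins as a mannose-rich block, which class I mannosidases trim, after which MGAT1 starts the complex chains, mannosidase II trims again and MGAT2, MGAT4 and MGAT5 enzymes add branches. In prostate cells the glycans of secreted kallikreins and of mucin-type proteins are products of these enzymes.

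Library totals ran from 16835093 to 36975028 counts, and levels are CPM, each count divided by the library total scaled with its TMM factor and given per 1000000 counts. Ribosomal RNA genes took 8.6% of the counts in ACBI replicate 3 and 0.639% to 2.09% in the other 17 libraries. The spread between replicates of a group, relative to counting error, was taken as chi-square per degree of freedom. It was 129 and 109 for the pairs with ACBI replicate 3 and 2.14 to 14.3 for all other pairs. All 8 luminal prostate markers were present, and their summed level ran from 9244 to 9315 CPM with DMSO and from 3594 to 3701 CPM with ACBI, with the other groups between. Of the markers of other cell types, 2 of 4 basal, 3 of 5 neuroendocrine, 4 of 5 stromal, 3 of 4 immune and 2 of 3 endothelial genes were measured. PTPRC (immune), PECAM1 (endothelial), DCN (stromal) and CHGA (neuroendocrine) stayed at or below 0.109 CPM in every group mean, and in each list 1 or 2 other genes reached 1 CPM. Summed basal markers, mostly KRT14, ran from 1.11 to 2.15 CPM in the DMSO libraries, 0 to 0.130 with 2-77, 0 to 0.188 with ENZA, 0.335 to 0.814 with P-16, 0.644 to 0.912 with BD98 and 0.953 to 1.40 with ACBI. Summed stromal markers, mostly COL1A1, ran from 13.7 to 15.2 CPM with DMSO, 18.8 to 19.3 with 2-77 and 12.0 to 17.3 elsewhere. Summed immune markers, mostly CD68, ran from 6.23 to 6.77 CPM with DMSO, 4.17 to 4.91 with P-16 or ENZA and 5.10 to 7.22 elsewhere. Endothelial markers, mostly VWF, summed to 20.9 to 23.0 CPM with DMSO, 56.1 to 57.4 with BD98, 0.580 to 0.870 with ACBI and 5.00 to 16.5 elsewhere, and neuroendocrine markers, mostly SYP, to 14.0 to 15.5 CPM with ACBI and 1.91 to 3.70 elsewhere. The part of these shifts in the results on the members was not tested. In bulk RNA, fewer cells of a type and less RNA per cell cannot be told apart.

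Divided by exon length, the sialyltransferase gene ST3GAL1 had the highest level of all 65 members in DMSO, at 97.7 ± 1.32 CPM per kilobase (SD, n = 3). ST3GAL1 caps the core 1 O-glycan with sialic acid. It was followed by B3GALT6 at 52.3 ± 0.325 CPM per kilobase, which acts in the linker of proteoglycan chains, MGAT4B at 46.2 ± 0.770 and B4GALT1 at 43.6 ± 0.702. The SDs of MGAT4B and B4GALT1 are smaller than the gap between them. Among the GALNT genes GALNT2 (34.5 ± 0.281 CPM per kilobase), GALNT7 (23.4 ± 1.40) and GALNT1 (21.4 ± 0.461) led in DMSO. MAN2B1, the lysosomal mannosidase, and MAN1B1, the mannosidase of early N-glycan trimming, had the highest mannosidase levels, at 38.7 ± 1.11 and 31.7 ± 0.911 CPM per kilobase. At the low end stood ST8SIA5 (0.00967 ± 0.00261 CPM per kilobase) and FUT9 (0.0162 ± 0.00499). MGAT4B overlaps SQSTM1 on the opposite strand, and since the counting is not stated to use strand, their reads cannot be told apart.

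**Figure D1:**
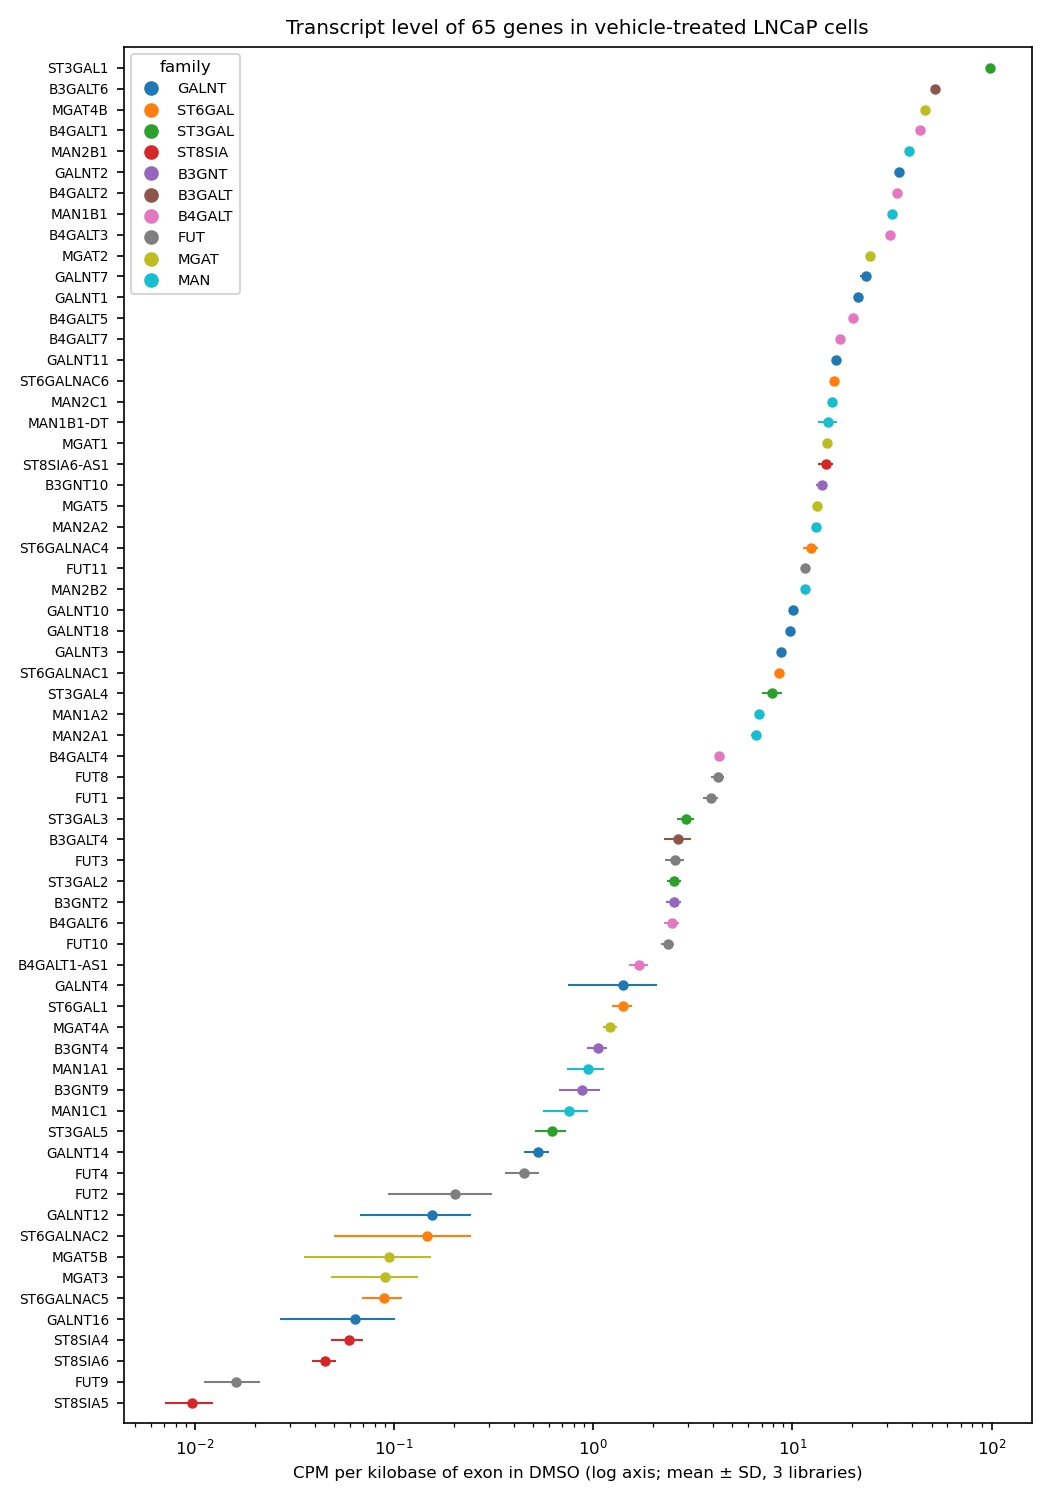
Level of each of the 65 members in DMSO, in CPM per kilobase of exon on a log axis, as the mean and SD of 3 libraries. ST3GAL1 lies highest and the ST8SIA5 gene lowest.

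The count minimum kept ST8SIA6 with exactly 3 libraries at 10 or more counts, all of them ACBI libraries, so this member entered only through the group where it was highest. The filter of the model kept ST8SIA6 and GALNT12 only through their ACBI libraries, so their values with ACBI are given without a test. Next inside were ST6GALNAC2 with 5 such libraries, GALNT12 with 6, FUT9 with 7 and ST8SIA5 with 8. Just outside were FUT7 and GALNT6 with 2 libraries each, and none of the 26 members left out exceeded 13 counts in any library. ST6GALNAC2 was the only reported member too low for the model, which tested the other 64. Its level was 0.116, 0.303 and 0.535 CPM in the DMSO libraries and highest with ACBI, at 0.622, 0.348 and 0.414 CPM.

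A gene is said to have changed when its adjusted p in edgeR's quasi-likelihood test was under 0.05, adjusted over all 15422 genes tested. Over the 6 conditions, 57 of 64 members differed, or 55 of 62 without GALNT12 and ST8SIA6, against 85.2% of all genes. The 7 that did not pass this test of any difference were B4GALT1-AS1, MGAT3, B3GNT4, MGAT5B, FUT2, MGAT4B and GALNT4, with adjusted p from 0.0559 to 0.446. With 2-77, 37 members changed against 40.7% of all genes, 28 up (20.5% of all genes) and 9 down (20.2%). With ACBI, 42 changed against 72.0% of all genes, 23 up (35.4%) and 19 down (36.6%), and without ACBI replicate 3 the count was 41. Without GALNT12 and ST8SIA6, 40 of 62 changed with ACBI, 21 up and 19 down, with a median log2 fold change of 0.13. With BD98, 41 changed against 49.0%, 23 up (24.5%) and 18 down (24.5%). With P-16, 20 changed against 24.0%, 16 up (12.4%) and 4 down (11.6%). With ENZA, 32 changed against 36.3%, 23 up (18.2%) and 9 down (18.1%). As shares of the 64 members these are 57.8% with 2-77, 65.6% with ACBI, 64.1% with BD98, 31.2% with P-16 and 50.0% with ENZA. The median log2 fold change of the members was 0.18 with 2-77, 0.15 with ACBI, 0.046 with BD98, 0.079 with P-16 and 0.13 with ENZA, where that of all genes tested was 0.00086, -0.0078, -0.0021, -0.0028 and 0.0011.

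Changes of at least 2-fold were found in 4 members up and 3 down with 2-77 (either direction 4.64% of all genes), 5 up, of which GALNT12 and ST8SIA6 are 2, and 6 down with ACBI (20.8%), 2 up and 3 down with BD98 (5.40%), 3 up and 2 down with P-16 (1.93%) and 3 up and 4 down with ENZA (3.84%). All 5 contrasts share the DMSO libraries. In all 5 contrasts ST3GAL5 and MGAT4A rose (2 of 64, where 3.42% of all genes did), and GALNT7, ST6GALNAC1 and B4GALT1 fell (3 of 64, 4.03%). Another 4 members (4.01% of all genes) changed in all 5 with mixed directions, namely GALNT3, GALNT10, GALNT18 and ST6GAL1. In all, 16 of 64 members rose in at least 1 contrast and fell in another (18.9% of all genes), and 8 changed in none of the 5 (14.6%). Among the 16 is ST8SIA6, whose only rise was with ACBI. That value is given without a test, so ST8SIA6 enters this count untested. In the 5 contrasts together, 5 of the changes had groups that overlapped by library, namely B4GALT6 with 2-77, B4GALT1, B4GALT7 and ST3GAL3 with ACBI, and ST3GAL5 with BD98.

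**Figure D2:**
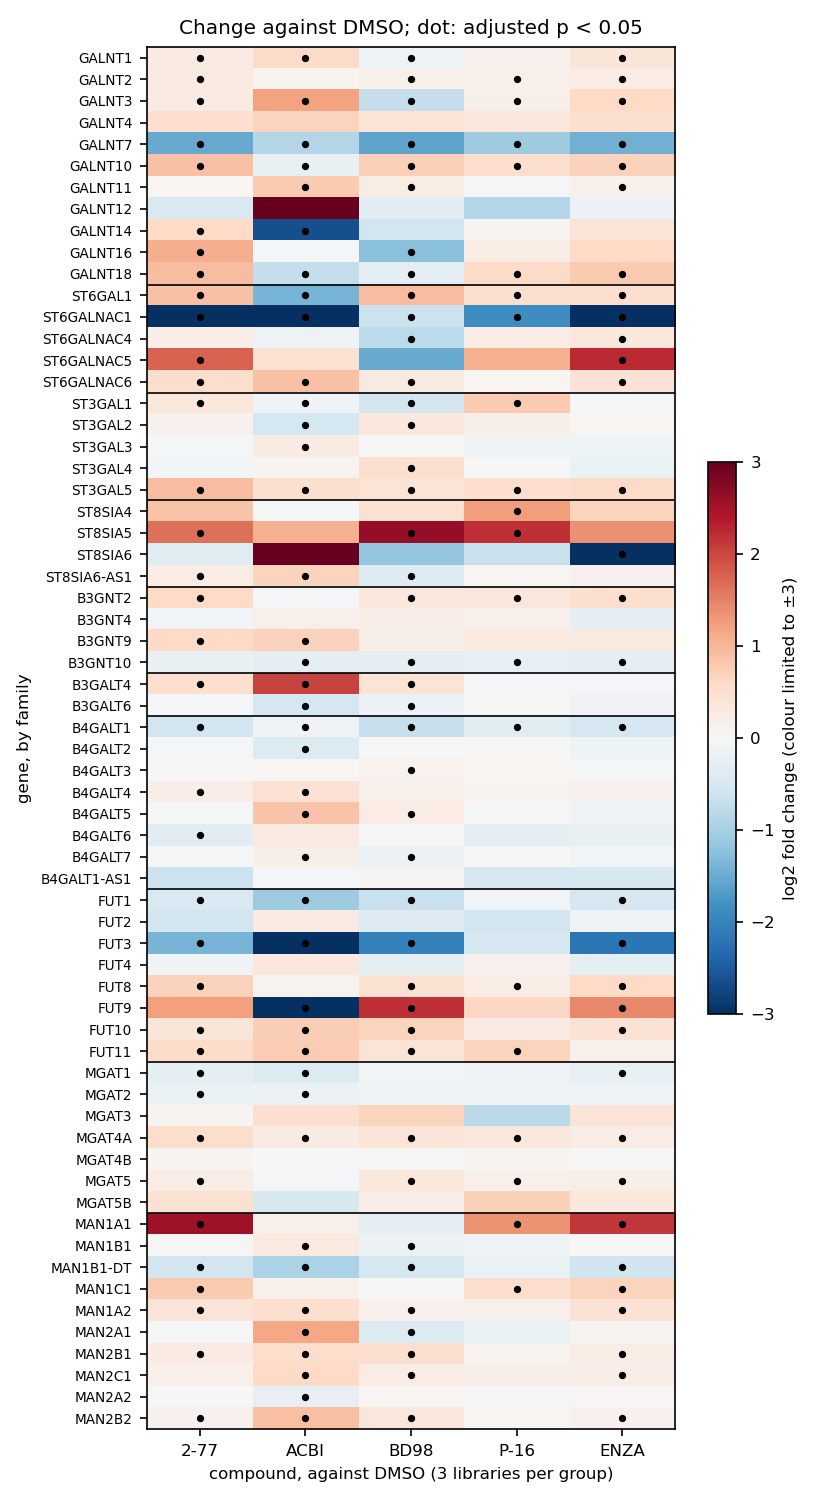
Log2 fold change of the 64 tested members (rows, grouped by family) against DMSO for the 5 compounds (columns), with the colour limited to 3 in either direction and a dot where the adjusted p was under 0.05, left out for GALNT12 and ST8SIA6 with ACBI, which are given without a test. GALNT7, ST6GALNAC1 and B4GALT1 are lower in all 5 columns, and the ACBI column differs in direction from the others at GALNT10 and ST6GAL1.

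GALNT7 encodes a transferase that acts mainly on peptides already carrying N-acetylgalactosamine, and it was lower with every compound. It lies on chromosome 4 from 173168811 to 173323967 (hg38). The DMSO libraries held 110.2, 116 and 103 CPM, those with 2-77 39.7, 36.7 and 39.7, those with BD98 36.0, 39.9 and 35.4 and those with ENZA 38.0, 41.4 and 41.0 CPM. ACBI gave 57.4, 56.2 and 66.9 CPM and P-16 53.2, 53.3 and 51.2 CPM. Every treated library was below every DMSO library. The log2 fold changes were -1.50 ± 0.062 (SE) with 2-77, -1.45 ± 0.062 with ENZA and -1.57 ± 0.063 with BD98 (edgeR adjusted p 3.31e-18, 8.03e-18 and 1.43e-18). They were smaller with P-16, at -1.06 ± 0.061 (adjusted p 3.38e-14), and with ACBI, at -0.87 ± 0.060 (9.64e-14). The difference between 2-77 and P-16 was -0.44 ± 0.064 (adjusted p 6.53e-06) and that between 2-77 and ACBI -0.64 ± 0.063 (3.03e-10).

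GALNT10, whose product also prefers glycosylated peptides, rose with 2-77, BD98, P-16 and ENZA and fell with ACBI. The gene is on chromosome 5 from 154190733 to 154420983. Its levels were 89.2, 92.0 and 93.6 CPM in DMSO, 174, 165 and 170.2 with 2-77, 150.2, 151 and 149 with BD98 and 148, 148 and 149.7 with ENZA. With P-16 they were 134, 132 and 127 CPM and with ACBI 78.4, 81.5 and 74.1 CPM. No treated group overlapped the DMSO libraries. The log2 fold change was 0.89 ± 0.040 with 2-77 (adjusted p 2.88e-17) and -0.23 ± 0.041 with ACBI (1.02e-05). GALNT18 rose with 2-77, P-16 and ENZA and fell with ACBI and BD98. In DMSO it stood at 24.3, 24.8 and 23.6 CPM, with 2-77 at 45.6, 47.7 and 43.8 CPM and with ACBI at 15.7, 14.7 and 13.8 CPM. The changes of GALNT18 were 0.91 ± 0.064 with 2-77, 0.79 ± 0.065 with ENZA, 0.59 ± 0.066 with P-16, -0.26 ± 0.069 with BD98 and -0.71 ± 0.071 with ACBI, with adjusted p up to 0.00245. GALNT18 contains CSNK2A3, which stood at 65.3 CPM in DMSO, on the same strand, and GALNT10 overlaps SAP30L-AS1 on the opposite strand, so how reads were divided between them is uncertain.

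GALNT3, known for glycosylating the phosphate hormone FGF23, had its highest level with ACBI and its lowest with BD98. The libraries held 34.7, 35.8 and 32.8 CPM with DMSO, 76.4, 75.1 and 87.5 with ACBI and 20.2, 21.1 and 21.9 with BD98. Its rise with ACBI was 1.21 ± 0.062 (adjusted p 9.79e-17) and its fall with BD98 was -0.71 ± 0.070 (1.29e-09). It also rose with ENZA (0.59 ± 0.064), 2-77 (0.23 ± 0.065) and P-16 (0.18 ± 0.066, adjusted p 0.0438), and the last of these did not pass without any one of P-16 replicates 1, 2 or 3 or DMSO replicates 1 or 3 (adjusted p 0.0842 to 0.168).

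GALNT12 was close to absent except with ACBI. GALNT12 is on chromosome 9 from 98807670 to 98850081. The DMSO libraries held 12, 6 and 6 counts, or 0.698, 0.303 and 0.267 CPM, and the ACBI libraries 313, 250 and 316 counts, or 12.2, 10.9 and 13.1 CPM. All ACBI libraries were above 10 CPM and all other libraries of the series below 1 CPM. The fitted log2 fold change with ACBI was 4.87 ± 0.28 (29.3-fold), a description with no test, and in the other 4 contrasts the adjusted p was 0.224 or higher. GALNT14 moved the other way with ACBI, from 1.57, 1.57 and 2.01 CPM to 0.233, 0.304 and 0.290 CPM (-2.63 ± 0.32, adjusted p 2.02e-08). Its rise with 2-77 (0.59 ± 0.23, adjusted p 0.0392) did not pass without DMSO replicate 1 (0.106), DMSO replicate 2 (0.116), 2-77 replicate 1 (0.141) or 2-77 replicate 2 (0.0761). The remaining GALNT genes with at least 1 CPM changed less. GALNT1 ran from -0.16 ± 0.057 with BD98 to 0.57 ± 0.056 with ACBI, GALNT2 from 0.076 ± 0.040 with ACBI to 0.27 ± 0.040 with 2-77, and GALNT11 from -0.052 ± 0.044 with P-16 to 0.78 ± 0.043 with ACBI. GALNT16 rested on 4, 6 and 15 counts with DMSO and 31, 20 and 19 with 2-77 (1.08 ± 0.38, adjusted p 0.0250, not passed without DMSO replicate 1 or 2 or 2-77 replicate 1, at 0.0938 to 0.120), and its value of -1.26 ± 0.52 with BD98 became -0.65 without DMSO replicate 3 (adjusted p 0.423). GALNT4 shares its position with POC1B, so its values are uncertain, and it changed in no contrast with DMSO. By family, 7 of 11 GALNT genes rose and 1 fell with 2-77, 4 and 4 with ACBI, 3 and 5 with BD98, 4 and 1 with P-16 and 6 and 1 with ENZA, the 4 rises with ACBI including GALNT12. In either direction these are 8, 8, 8, 5 and 7 of 11, where in the same order 40.7%, 72.0%, 49.0%, 24.0% and 36.3% of all genes changed.

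The DNA just before the annotated starts of MAN1A1, GALNT7 and GALNT12, 3 members with a promoter entry, is shown as examples. MAN1A1 rose with 2-77 and ENZA, GALNT7 fell with every compound and GALNT12 was higher with ACBI. Other members with an entry shared such changes. B4GALT1 also fell with every compound, and GALNT10 also rose with 2-77 and ENZA. Each line gives the 250 bases before the start in RefSeq (GRCh38.p14), 5′ to 3′ in the direction of the gene, with capitals at the GC box GGGCGG or its reverse complement. The windows are chr6:119349762-119350011 (minus strand) for MAN1A1, chr4:173168561-173168810 (plus strand) for GALNT7 and chr9:98807420-98807669 (plus strand) for GALNT12.
MAN1A1: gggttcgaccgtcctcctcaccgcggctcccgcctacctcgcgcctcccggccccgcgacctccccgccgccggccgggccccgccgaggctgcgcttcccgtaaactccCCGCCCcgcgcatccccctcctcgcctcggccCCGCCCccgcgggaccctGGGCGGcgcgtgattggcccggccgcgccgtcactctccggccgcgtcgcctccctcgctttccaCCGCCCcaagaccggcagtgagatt
GALNT7: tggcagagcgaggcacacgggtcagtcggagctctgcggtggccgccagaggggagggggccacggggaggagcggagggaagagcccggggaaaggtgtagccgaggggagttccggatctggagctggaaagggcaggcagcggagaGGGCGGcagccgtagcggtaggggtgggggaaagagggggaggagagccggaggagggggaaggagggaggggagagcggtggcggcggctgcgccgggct
GALNT12: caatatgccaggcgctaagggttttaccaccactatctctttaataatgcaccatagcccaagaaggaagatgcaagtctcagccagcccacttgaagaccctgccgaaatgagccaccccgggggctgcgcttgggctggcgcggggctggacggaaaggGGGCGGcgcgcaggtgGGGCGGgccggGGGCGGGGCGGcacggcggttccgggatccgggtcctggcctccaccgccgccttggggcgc
The MAN1A1 window held 4 GC boxes and 40 CG dinucleotides, that of GALNT7 1 and 20, and that of GALNT12 4 and 21, where the median of 35116 promoters of the same length was 11 CG dinucleotides. A RefSeq promoter entry was found for 46 of the 65 members, and in 31 of them the start equalled the deposited one. The GC box was in 34 of the 46 (73.9%) and in 42.6% of all 35116 promoters. The 35116 were not selected for expression, whereas the members were. These shares, those that follow and the CG median therefore do not compare like sets. The hexamer AGAACA of the androgen receptor's element, searched on both strands, was in 2 of the 46, FUT3 and FUT8, and in 12.4% of all promoters. The full element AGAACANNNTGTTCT was in 0 of the 46 and in 0.00285% of all. The full element contains the hexamer, and a match describes letters in a window, not a site.

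ST6GALNAC1, the enzyme that makes the sialyl-Tn antigen by adding sialic acid to the first sugar of an O-glycan, had the largest fall of all members with 2-77, P-16 and ENZA. The gene lies on chromosome 17 from 76624763 to 76643757. Its level was 24.5, 24.2 and 24.5 CPM in the DMSO libraries, 15.6, 14.8 and 16.4 with BD98 and 6.71, 6.88 and 6.42 with P-16. Levels were 1.10, 1.64 and 1.34 CPM with 2-77, 1.13, 0.868 and 0.927 with ENZA and 0.777, 0.391 and 0.207 with ACBI. The groups formed an order without overlap from DMSO through BD98 and P-16 to the other 3, of which 2-77 and ENZA overlapped each other. Log2 fold changes were -0.64 ± 0.11 with BD98, -1.87 ± 0.12 with P-16, -4.18 ± 0.15 with 2-77, -4.66 ± 0.16 with ENZA and -5.69 ± 0.18 with ACBI, with adjusted p of 1.54e-05 or lower. Between 2-77 and ENZA the difference was 0.48 ± 0.23 (95% interval -0.0056 to 0.98, adjusted p 0.262). At the same dose P-16 left it 2.80 ± 0.18 above ENZA (adjusted p 3.98e-13).

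ST3GAL1 rose with P-16 and 2-77 and fell with BD98 and ACBI. Its place is chromosome 8 from 133454848 to 133571887. DMSO libraries held 701, 703 and 718 CPM, P-16 libraries 1238, 1208 and 1238 and 2-77 libraries 895, 881 and 869 CPM. ENZA libraries held 718, 710.3 and 718 CPM, ACBI libraries 673, 667 and 628 and BD98 libraries 466, 485 and 503 CPM. P-16 libraries were above all others and BD98 libraries below all others, and ENZA overlapped DMSO. The changes were 0.80 ± 0.035 with P-16 (adjusted p 5.15e-17), 0.32 ± 0.034 with 2-77 (1.03e-08) and -0.55 ± 0.035 with BD98 (9.08e-14). With ENZA the change was 0.016 ± 0.034 (95% interval -0.059 to 0.091, adjusted p 0.750). The fall with ACBI, -0.11 ± 0.034 (adjusted p 0.00626), did not pass without ACBI replicate 3, at -0.068 (adjusted p 0.0619).

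ST6GAL1, which puts sialic acid on the galactose of N-glycans, rose with 2-77, BD98, P-16 and ENZA and fell with ACBI. It lies on chromosome 3 from 186930526 to 187078553. It stood at 5.88, 7.33 and 7.04 CPM with DMSO, 11.9, 11.6 and 13.7 with 2-77, 13.0, 11.8 and 13.9 with BD98 and 2.56, 2.83 and 2.32 with ACBI. With P-16 it stood at 9.03, 9.43 and 10.0 CPM and with ENZA at 10.3, 8.92 and 9.96 CPM. The ACBI libraries were below and all other treated libraries above the DMSO libraries. The changes were 0.93 ± 0.11 with BD98, 0.87 ± 0.11 with 2-77, 0.51 ± 0.11 with ENZA, 0.48 ± 0.11 with P-16 and -1.40 ± 0.13 with ACBI, with adjusted p of 0.00177 or lower. ST3GAL5, which makes the ganglioside GM3, rose with every compound, from 3.78, 2.83 and 4.06 CPM in DMSO to 7.26, 6.74 and 6.30 CPM with 2-77 (0.93 ± 0.14, adjusted p 4.65e-06). Its smaller rises with ACBI (0.49 ± 0.15), P-16 (0.51 ± 0.15) and BD98 (0.42 ± 0.15) did not pass without DMSO replicate 2 (adjusted p 0.0545, 0.111 and 0.169), and that with BD98 also not without BD98 replicate 2 (0.0614) or 3 (0.131).

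Of the other sialyltransferase genes, ST6GALNAC6 rose with 2-77 (0.53 ± 0.053), ACBI (0.88 ± 0.052), BD98 (0.27 ± 0.054) and ENZA (0.43 ± 0.053). ST6GALNAC4 fell with BD98, from 21.9, 18.9 and 22.2 CPM to 11.9, 11.9 and 12.4 CPM (-0.79 ± 0.091, adjusted p 2.27e-08), and rose with ENZA (0.31 ± 0.083). ST3GAL2 fell with ACBI (-0.53 ± 0.074) and rose with BD98 (0.31 ± 0.070). ST3GAL4 rose with BD98 (0.50 ± 0.076, adjusted p 2.76e-06), and ST3GAL3 had its lowest adjusted p with ACBI (0.25 ± 0.092, 0.0183), which did not hold without DMSO replicate 1 (0.0654) or 2 (0.0979) or ACBI replicate 1 (0.0802). ST6GALNAC5, an enzyme of ganglioside sialylation, was near the limit of detection in DMSO with 6, 5 and 9 counts and reached 38, 55 and 33 counts with ENZA and 38, 28 and 25 with 2-77. It rose by 2.23 ± 0.46 with ENZA (adjusted p 0.000282) and 1.76 ± 0.47 with 2-77 (0.00365). Over the 5 sialyltransferases of the ST3GAL series, 2 rose and 0 fell with 2-77 (40.7%), 2 and 2 with ACBI (72.0%), 3 and 1 with BD98 (49.0%), 2 and 0 with P-16 (24.0%) and 1 and 0 with ENZA (36.3%), with the share of all genes changed in either direction in parentheses. Over the 5 tested ST6GAL and ST6GALNAC genes, 3 rose and 1 fell with 2-77 (40.7%), 1 and 2 with ACBI (72.0%), 2 and 2 with BD98 (49.0%), 1 and 1 with P-16 (24.0%) and 4 and 1 with ENZA (36.3%), against the same shares.

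The ST8SIA genes, which add sialic acid to sialic acid, rest on few counts. ST8SIA5 held 3, 2 and 3 counts with DMSO, 16, 21 and 23 with BD98 and 20, 12 and 9 with P-16. It rose by 2.63 ± 0.50 with BD98 (adjusted p 7.06e-05) and 2.19 ± 0.53 with P-16 (0.00266), while its rise with 2-77 (1.65 ± 0.55, adjusted p 0.0181) did not pass without 2-77 replicate 2 (0.0678), DMSO replicate 2 (0.0681) or DMSO replicate 3 (0.0563). ST8SIA4, a polysialyltransferase, went from 6, 10 and 10 counts with DMSO to 21, 31 and 15 with P-16 (1.25 ± 0.39, adjusted p 0.0180), a call that ended without P-16 replicate 2 (0.135), DMSO replicate 1 (0.0689) or DMSO replicate 3 (0.0506). ST8SIA6 held 2, 2 and 2 counts with DMSO and 36, 25 and 29 with ACBI. All ACBI libraries lay above all DMSO libraries, a description with no test. With ENZA all 3 libraries were at 0 counts against a sum of 6 with DMSO. With 3 counts over the ENZA group put in place of 0 as a floor, ST8SIA6 was lower by a ratio of 2.69. This ratio is a bound set by the floor, not an observed fold, and it ignores the counting error of the DMSO sum. The edgeR call of this fall (adjusted p 0.0297) ended on leaving out any one ENZA library, DMSO replicate 1 or DMSO replicate 2 (0.0529 to 0.0929). The antisense transcript ST8SIA6-AS1 overlaps ST8SIA6 and was far higher, at 26.7 ± 2.33 CPM in DMSO and 42.8 ± 0.702 with ACBI (0.68 ± 0.071, adjusted p 9.86e-10). Reads of the pair cannot be told apart.

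B4GALT1, which adds galactose to N-acetylglucosamine on many glycans, was lower with every compound, though with ACBI the libraries overlapped those of DMSO. The gene is on chromosome 9 from 33104077 to 33167336. It held 214, 210.1 and 217 CPM with DMSO, 133, 137 and 129.8 with BD98, 148, 143 and 139.8 with 2-77 and 148, 148 and 159 with ENZA. With P-16 it held 169, 174 and 174 CPM and with ACBI 210.1, 203 and 181 CPM. ACBI replicate 1 lay within the DMSO range and all libraries of the other 4 compounds below it. The falls were -0.68 ± 0.044 with BD98, -0.57 ± 0.044 with 2-77, -0.50 ± 0.044 with ENZA and -0.31 ± 0.044 with P-16, with adjusted p of 2.92e-06 or lower. That with ACBI was -0.11 ± 0.043 (adjusted p 0.0272) and -0.038 without ACBI replicate 3 (adjusted p 0.380). It also did not pass without DMSO replicate 1 (0.0609) or 3 (0.0899). B4GALT1-AS1, on the other strand, held 1.44 ± 0.157 CPM in DMSO and passed in none of the 5 contrasts.

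B4GALT5, a lactosylceramide synthase, rose with ACBI from 93.9, 93.4 and 98.4 CPM to 172, 176 and 169 CPM (0.86 ± 0.044, adjusted p 6.89e-17) and with BD98 (0.23 ± 0.044). B4GALT2 fell with ACBI (-0.40 ± 0.057) and B4GALT4 rose with it (0.43 ± 0.073). B4GALT7, an enzyme of the proteoglycan linker, rose with ACBI (0.17 ± 0.068, adjusted p 0.0263) and fell with BD98 (-0.18 ± 0.070, 0.0356), B4GALT3 rose with BD98 (0.12 ± 0.045, 0.0312) and B4GALT6 fell with 2-77 (-0.32 ± 0.13, 0.0444). Each of these 4 small changes failed without any one of at least 4 libraries in turn (adjusted p 0.0509 to 0.185), and those of B4GALT7 also with library totals (0.120 and 0.237). Across the 8 genes of the B4GALT series, 1 rose and 2 fell with 2-77, 3 and 2 with ACBI, 2 and 2 with BD98, 0 and 1 with P-16 and 0 and 1 with ENZA, where 40.7%, 72.0%, 49.0%, 24.0% and 36.3% of all genes changed in either direction. B3GALT4, which makes the gangliosides GM1 and GD1b, was highest with ACBI. It lies on chromosome 6 from 33277123 to 33278825, with 4.66, 5.16 and 3.79 CPM in the DMSO libraries and 21.3, 17.4 and 16.8 CPM in the ACBI libraries. These groups did not overlap, and the rise was 2.03 ± 0.14 (4.10-fold, adjusted p 7.15e-14). B3GALT6 moved down with ACBI, by -0.51 ± 0.043 (adjusted p 7.08e-12). B3GNT2, an enzyme of poly-N-acetyllactosamine chains, rose with 2-77 (0.59 ± 0.12, adjusted p 0.000219), ENZA (0.49 ± 0.12, 0.00175), P-16 (0.34 ± 0.12, 0.0449) and BD98 (0.33, 0.0295). The call with BD98 was lost without BD98 replicate 1 (0.232) or DMSO replicate 1 (0.123). That with P-16 was lost without P-16 replicate 1 (0.304) or DMSO replicate 1 (0.173), among other alternatives. The change of B3GNT2 with ACBI was -0.040 ± 0.13 (0.787). B3GNT9 rose with ACBI (0.68 ± 0.17, adjusted p 0.000957) and 2-77 (0.60 ± 0.17, 0.00698), the latter not without DMSO replicate 1 (0.0616), and B3GNT4 changed in no contrast with DMSO. In DMSO B3GNT9 held 2.56 CPM and B3GNT4 4.93 CPM. They overlap C16orf70 (75.1 CPM) and DIABLO (66.4 CPM) in turn, on the opposite strand. Since the counting is not stated to use strand, reads of these pairs cannot be told apart. B3GNT10 had log2 fold changes from -0.29 ± 0.088 to -0.21 ± 0.086 in the 5 contrasts and passed in all but that with 2-77. Each of these 4 calls of B3GNT10 was lost without 1 library: with ACBI without ACBI replicate 2 (adjusted p 0.0602) or DMSO replicate 2 (0.0558), with BD98 without BD98 replicate 3 (0.0633), with P-16 without any P-16 library or DMSO replicate 1 or 2 (0.0624 to 0.167) and with ENZA without DMSO replicate 2 (0.0730) or ENZA replicate 1 (-0.18, 0.114).

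FUT3, which makes the Lewis blood group antigens, fell most with ACBI. FUT3 is on chromosome 19 from 5842888 to 5857122. The DMSO libraries held 6.11, 7.48 and 6.42 CPM, the ACBI libraries 0.117, 0 and 0.207 and the ENZA libraries 1.41, 1.38 and 1.71 CPM. With BD98 it was 1.29, 1.65 and 1.94 CPM, with 2-77 2.82, 1.81 and 2.97 and with P-16 4.84, 4.37 and 5.25 CPM. Every treated library lay below every DMSO library. The ACBI libraries held 3, 0 and 5 counts, so the fitted change of -5.86 ± 0.34 (adjusted p 1.28e-15) is imprecise. The other falls were -2.16 ± 0.22 with ENZA, -2.02 ± 0.22 with BD98 and -1.39 ± 0.20 with 2-77, with adjusted p of 1.72e-06 or lower. With P-16 the change was -0.47 ± 0.19 (adjusted p 0.0744), and P-16 stood 1.69 ± 0.22 above ENZA (1.15e-06). FUT3 has near-identical neighbours in FUT5 and FUT6, which did not reach the count minimum, and how the counting divided shared reads is not stated in the sources used here.

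FUT8, the sole enzyme of core fucose on N-glycans, rose with 2-77, ENZA, BD98 and P-16. The gene spans chromosome 14 from 65410592 to 65744121. Its levels were 21.1, 23.9 and 24.4 CPM with DMSO, 37.7, 38.8 and 35.4 with 2-77, 33.9, 36.1 and 35.4 with ENZA and 30.6, 31.8 and 32.5 with BD98. With P-16 they were 26.4, 27.3 and 26.9 CPM and with ACBI 26.0, 23.5 and 25.5 CPM. All but the ACBI libraries lay above the DMSO range. The rises were 0.69 ± 0.063 (adjusted p 3.82e-10), 0.60 ± 0.063 (6.75e-09), 0.45 ± 0.064 (1.25e-06) and 0.21 ± 0.066 (0.0178) in that order, and the last ended without DMSO replicate 1 (0.127) or P-16 replicate 2 (0.0634). With ACBI the change was 0.11 ± 0.065 (95% interval -0.033 to 0.25, adjusted p 0.133).

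FUT1, which makes the H antigen, fell with ACBI (15.0, 17.3 and 17.5 CPM in DMSO and 8.24, 8.83 and 6.63 CPM with ACBI, -1.08 ± 0.097, adjusted p 4.19e-11), BD98 (-0.68 ± 0.094), ENZA (-0.49 ± 0.092) and 2-77 (-0.45 ± 0.091). FUT10 rose with ACBI (0.74 ± 0.094), BD98 (0.66 ± 0.095), ENZA (0.44 ± 0.095) and 2-77 (0.36 ± 0.096). FUT11 rose with ACBI (0.76 ± 0.072), P-16 (0.66 ± 0.073), 2-77 (0.54 ± 0.072) and BD98 (0.38 ± 0.073) and was 0.16 ± 0.074 with ENZA (adjusted p 0.0957). FUT9, an enzyme of the Lewis X antigen, was at 0 counts in all ACBI libraries against 4, 5 and 3 in DMSO (edgeR adjusted p 0.000453). With 3 counts over the ACBI group put in place of 0 as a floor, FUT9 was lower by a ratio of 4.91. That ratio is a bound set by the floor, not an observed fold, and it ignores the counting error of the DMSO sum. FUT9 rose with BD98, to 17, 20 and 29 counts (2.18 ± 0.46, adjusted p 0.000252). Its rise with ENZA (1.43 ± 0.49, adjusted p 0.0217) did not pass without DMSO replicate 3 (0.115) or ENZA replicate 1 (0.0621) or 2 (0.101). Of the 8 FUT genes, 3 rose and 2 fell with 2-77, 2 and 3 with ACBI, 4 and 2 with BD98, 2 and 0 with P-16 and 3 and 2 with ENZA, beside 40.7%, 72.0%, 49.0%, 24.0% and 36.3% of all genes in either direction. FUT2 and FUT4 changed in none of these.

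**Figure D3:**
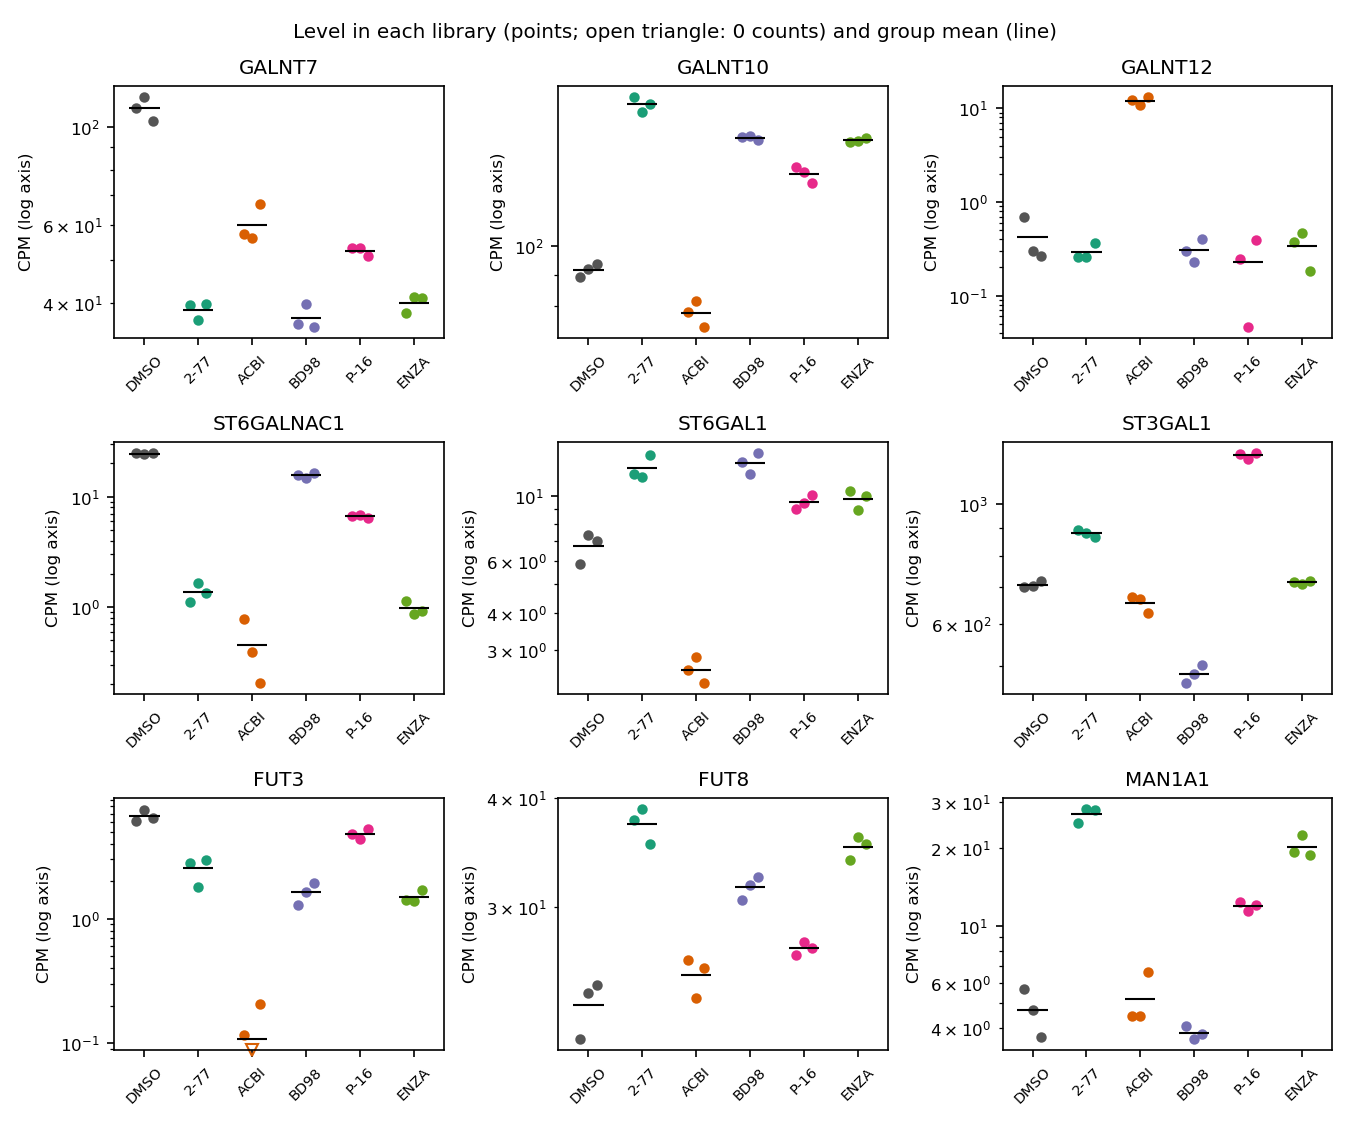
Level in CPM (log axes, each panel with its own range) of 9 members in each of the 18 libraries, by condition, with points for libraries, lines for group means and an open triangle at the axis for the ACBI library in which FUT3 had 0 counts. GALNT12 is above 10 CPM only in the ACBI libraries, and MAN1A1 is highest with 2-77, then ENZA, then P-16.

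The MGAT genes, which set the branching of N-glycans, changed by less than 2-fold wherever they passed. MGAT4A, which starts a branch, rose with every compound. Its libraries held 10.7, 12.1 and 10.6 CPM with DMSO and 15.1, 15.9 and 16.8 CPM with 2-77, without overlap, a rise of 0.52 ± 0.084 (adjusted p 1.11e-05). The rises with BD98 (0.39 ± 0.086), P-16 (0.32 ± 0.087), ACBI (0.26 ± 0.086) and ENZA (0.23 ± 0.086) were smaller. That with ACBI did not pass without DMSO replicate 3 (adjusted p 0.0503), nor that with ENZA without DMSO replicate 1 (0.106) or 3 (0.139) or ENZA replicate 1 (0.0796) or 2 (0.126). MGAT5, which adds the branch on which long chains often grow, rose with BD98 (0.31 ± 0.038), 2-77 (0.23 ± 0.038), ENZA (0.18 ± 0.038) and P-16 (0.14 ± 0.039, not with library totals, adjusted p 0.0540) and was -0.059 ± 0.039 with ACBI (adjusted p 0.169). MGAT1 fell with ACBI (-0.42 ± 0.045), 2-77 (-0.30 ± 0.044) and ENZA (-0.24 ± 0.044), and MGAT2 with 2-77 (-0.19 ± 0.053) and ACBI (-0.18 ± 0.053). MGAT3, MGAT4B and MGAT5B changed in none of the 5 contrasts. Thus of the 7 genes 2 rose and 2 fell with 2-77, 1 and 2 with ACBI, 2 and 0 with BD98, 2 and 0 with P-16 and 2 and 1 with ENZA, beside 40.7%, 72.0%, 49.0%, 24.0% and 36.3% of all genes in either direction.

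MAN1A1, a Golgi class I mannosidase that trims N-glycans before they become complex, had the largest rise of all members with 2-77. MAN1A1 is on chromosome 6 from 119177205 to 119349761. The DMSO libraries held 5.70, 4.70 and 3.70 CPM, the 2-77 libraries 24.9, 28.2 and 28.0 and the ENZA libraries 19.3, 22.4 and 18.8 CPM. The P-16 libraries held 12.3, 11.4 and 12.0 CPM, the ACBI libraries 4.47, 4.48 and 6.63 and the BD98 libraries 4.08, 3.65 and 3.82 CPM. All 2-77 libraries were above all ENZA libraries, and these above all P-16 libraries, while ACBI and BD98 overlapped DMSO. The rises were 2.54 ± 0.13 with 2-77 (5.80-fold, adjusted p 2.96e-15), 2.13 ± 0.13 with ENZA (2.28e-13) and 1.36 ± 0.14 with P-16 (1.89e-08). With ACBI the change was 0.16 ± 0.15 (95% interval -0.17 to 0.49) and with BD98 -0.27 ± 0.16 (-0.62 to 0.087).

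The other class I genes moved less. MAN1C1, another Golgi enzyme of that class, went from 4.54, 2.83 and 4.64 CPM with DMSO to 6.22, 8.29 and 6.34 with 2-77 (0.79 ± 0.16, adjusted p 0.000199) and 6.15, 6.67 and 6.07 CPM with ENZA (0.66 ± 0.16, 0.00170). Its rise with P-16 (0.53 ± 0.17, adjusted p 0.0191) fell to 0.33 without DMSO replicate 2 (0.178) and did not pass without P-16 replicate 2 (0.0522). MAN1A2 rose with ACBI (0.51 ± 0.055), ENZA (0.44 ± 0.055), 2-77 (0.38 ± 0.055) and BD98 (0.15 ± 0.056), the last not without BD98 replicate 1 (adjusted p 0.0651) or 2 (0.194) or DMSO replicate 1 (0.0671) or 3 (0.158), nor with DESeq2 (0.0563). MAN1B1 rose with ACBI (0.29 ± 0.040) and fell with BD98 (-0.16 ± 0.040), which did not pass with library totals in place of TMM factors (adjusted p 0.0832). MAN1B1-DT, a noncoding transcript next to MAN1B1, fell with ACBI (-0.95 ± 0.088), ENZA (-0.59 ± 0.085), 2-77 (-0.56 ± 0.085) and BD98 (-0.54 ± 0.086). Its libraries held 28.8, 24.9 and 31.0 CPM with DMSO and 14.2, 15.7 and 14.1 CPM with ACBI.

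MAN2A1, a Golgi mannosidase II, rose with ACBI. It stood at 30.0, 32.9 and 29.2 CPM with DMSO and 64.8, 65.0 and 75.2 CPM with ACBI, without overlap, a rise of 1.16 ± 0.072 (adjusted p 1.08e-14). With BD98 it was lower, at 24.3, 24.9 and 20.7 CPM (-0.41 ± 0.078, adjusted p 7.90e-05). MAN2A2, the other mannosidase II, fell with ACBI (-0.25 ± 0.052) and passed in no other contrast with DMSO. The lysosomal MAN2B1 rose with ACBI (0.53 ± 0.043), BD98 (0.51 ± 0.043), 2-77 (0.25 ± 0.043) and ENZA (0.23 ± 0.043), and was 0.11 ± 0.044 with P-16 (adjusted p 0.0721). MAN2B2 rose most with ACBI, from 56.6, 61.0 and 60.5 to 116, 114 and 106 CPM (0.91 ± 0.050, adjusted p 5.70e-16). The cytosolic MAN2C1 rose with ACBI (0.59 ± 0.071), BD98 (0.22 ± 0.072) and ENZA (0.21 ± 0.072, adjusted p 0.0265). The call with BD98 was lost without DMSO replicate 2 (0.0639), and that with ENZA without DMSO replicate 2 (0.107) or 3 (0.0504) or ENZA replicate 1 (0.0636) or 2 (0.0945) and with library totals (0.0604). With MAN1B1-DT, the 10 MAN genes had 5 rises and 1 fall with 2-77, 6 and 2 with ACBI, 4 and 3 with BD98, 2 and 0 with P-16 and 6 and 1 with ENZA, where 40.7%, 72.0%, 49.0%, 24.0% and 36.3% of all genes changed in either direction.

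The direct contrast of 2-77 with ENZA asks where these members differed between 2-77 at 1 µM and the antiandrogen at 10 µM. Here 9 of 64 members differed, against 5.54% of all genes, with 8 higher with 2-77 (2.94% of all genes) and 1 lower (2.60%). ST3GAL1 differed by 0.30 ± 0.034 (adjusted p 2.67e-07), FUT11 by 0.38 ± 0.069 (0.000449), GALNT10 by 0.19 ± 0.039 (0.00133) and GALNT3 by -0.36 ± 0.061 (0.000210). These 4 differences passed whichever library was left out. The other 5 were MAN1A1 (0.41 ± 0.10, adjusted p 0.0124), B3GALT4 (0.54 ± 0.14, 0.0203), ST6GAL1 (0.35 ± 0.100, 0.0295), MGAT4A (0.28 ± 0.080, 0.0315) and FUT3 (0.77 ± 0.23, 0.0424), and each of them failed without at least 3 of the libraries in turn. Without ENZA replicate 1, 2 or 3 the count of differing members was 5 each time. For GALNT7 the difference was -0.055 ± 0.064 (95% interval -0.19 to 0.085, adjusted p 0.731), and for FUT8 0.084 ± 0.059 (-0.045 to 0.21, 0.520).

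P-16 and ENZA, both at 10 µM, differed in 22 of 64 members, against 21.4% of all genes, with 9 higher with P-16 (11.0%) and 13 lower (10.3%). Higher with P-16 were ST6GALNAC1, FUT3 and ST3GAL1 (0.78 ± 0.035, adjusted p 1.37e-16), followed by FUT11 (0.50 ± 0.070), FUT1 (0.41 ± 0.092), MAN1B1-DT (0.39 ± 0.086), GALNT7 (0.39 ± 0.064), B4GALT1 (0.19 ± 0.044) and MGAT1 (0.14 ± 0.044). Lower with P-16 were MAN1A1 (-0.77 ± 0.11, adjusted p 9.22e-06), GALNT3 (-0.41 ± 0.062), FUT8 (-0.39 ± 0.062) and ST6GALNAC6 (-0.37 ± 0.053), among others. Of these 22, the differences of GALNT18, MAN1B1, MAN2B1, MGAT1 and ST6GALNAC5 failed without at least 1 library.

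**Figure D4:**
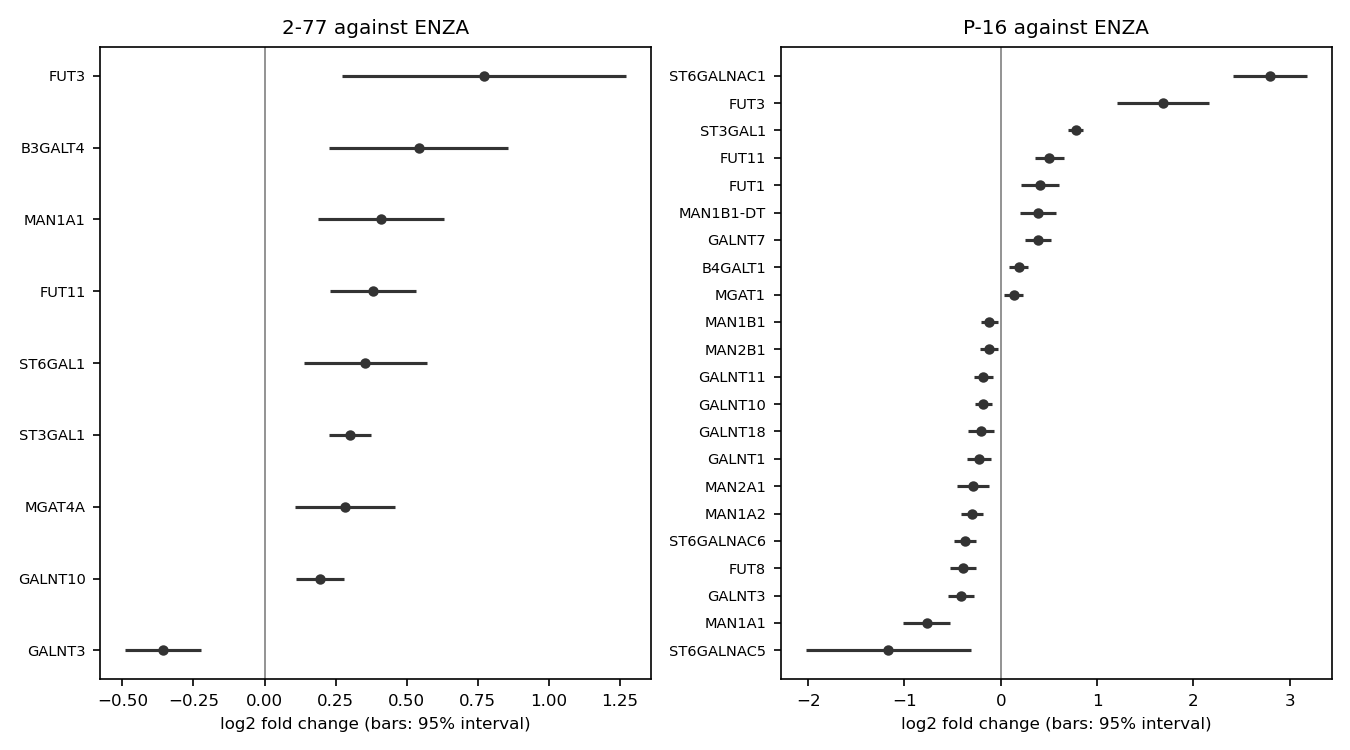
Log2 fold change with its 95% interval for the members that differed between 2-77 and ENZA (left, positive is higher with 2-77) and between P-16 and ENZA (right, positive is higher with P-16). GALNT3 is the 1 gene left of 0 in the left panel, and ST6GALNAC1 lies furthest right in the right panel.

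Between 2-77 and P-16, 21 members differed, against 22.4% of all genes, with 13 higher with 2-77 (10.6%) and 8 lower (11.8%). MAN1A1 was 1.18 ± 0.11 higher and ST6GALNAC1 -2.31 ± 0.17 on the same scale, both with adjusted p of 5.86e-09 or lower. No other member differed by 2-fold between them (0.999% of all genes). Between 2-77 and BD98, 37 differed, against 42.0%, with 23 higher with 2-77 (20.7%) and 14 lower (21.3%). MAN1A1 (2.80 ± 0.13) and GALNT18 (1.18 ± 0.064) were higher with 2-77, and ST6GALNAC1 was lower (-3.54 ± 0.15). ST6GALNAC4 (0.99 ± 0.087) and GALNT3 (0.94 ± 0.067) were also higher with 2-77, by less than 2-fold. ST6GALNAC5, which rests on few counts, was higher with 2-77 by 3.29, a value that became 7.78 without BD98 replicate 1. At least 2-fold were 5 of the rises and 1 of the falls (5.27% of all genes in either direction). Between 2-77 and ACBI, 53 differed, against 70.2%, with 28 higher with 2-77 (36.8%) and 25 lower (33.4%), or 51 of 62, 28 and 23 without GALNT12 and ST8SIA6. Of the 53 calls, 7 were lost on leaving out some library. Without ACBI replicate 3, B4GALT1-AS1, B4GALT4, FUT4, MAN1A2, MGAT1, MGAT5B and ST8SIA4 did not pass (edgeR adjusted p 0.0521 to 0.262). Among others, ST6GAL1 (2.27 ± 0.12), GALNT18 (1.63 ± 0.066) and GALNT10 (1.12 ± 0.040) were higher with 2-77, and B3GALT4 (-1.52 ± 0.13), MAN2A1 (-1.21 ± 0.070) and B4GALT5 (-0.89 ± 0.043) higher with ACBI. At least 2-fold were 10 of those higher and 4 of those lower with 2-77 (19.5% of all genes in either direction). Without GALNT12 and ST8SIA6 these were 10 and 2.

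Other steps of glycosylation were read from 8 textbook lists of 168 genes, of which 151 were tested. The counts of these lists stand beside shares of all genes of 20.5% up and 20.2% down with 2-77, 35.4% and 36.6% with ACBI, 24.5% and 24.5% with BD98, 12.4% and 11.6% with P-16 and 18.2% and 18.1% with ENZA. In the 5 contrasts with DMSO the list of nucleotide sugar synthesis, which supplies the activated sugars, had 3 of 27 members up and 12 down with 2-77, 10 and 9 with ACBI, 6 and 14 with BD98, 4 and 6 with P-16 and 6 and 10 with ENZA, which with ACBI is 19 of 27 against 72.0% of all genes. UAP1, which makes UDP-N-acetylglucosamine, fell with every compound, with log2 fold changes of -1.39 ± 0.036 with 2-77, -1.33 ± 0.036 with ACBI, -1.02 ± 0.036 with BD98, -0.996 ± 0.036 with P-16 and -1.28 ± 0.036 with ENZA (adjusted p of 5.04e-19 or lower). PGM1, of the same list, rose with every compound. Its changes were 0.53 ± 0.046 with 2-77, 0.88 ± 0.045 with ACBI, 0.37 ± 0.046 with BD98, 0.44 ± 0.046 with P-16 and 0.21 ± 0.046 with ENZA (adjusted p of 0.000733 or lower). Of 12 oligosaccharyltransferase genes, whose complex transfers the N-glycan block, 0 rose and 6 fell with 2-77, 2 and 8 with ACBI, 1 and 7 with BD98, 0 and 4 with P-16 and 0 and 3 with ENZA. STT3A, a catalytic subunit, changed by -0.68 ± 0.034 with ACBI and -0.23 ± 0.033 with 2-77 (adjusted p 3.23e-17 and 1.81e-06). Of 24 genes of lipid-linked oligosaccharide assembly, 1 rose and 11 fell with 2-77, 4 and 9 with ACBI, 3 and 7 with BD98, 1 and 4 with P-16 and 1 and 6 with ENZA, DPAGT1, which catalyses the first step, changing by -0.49 ± 0.056 with 2-77. The medians of this list ran from -0.16 with 2-77 to -0.060 with P-16.

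Of 25 tested genes among other glycosyltransferases, 4 rose and 5 fell with 2-77, 13 and 7 with ACBI, 7 and 7 with BD98, 2 and 1 with P-16 and 4 and 3 with ENZA. As for the lists that follow, all genes stood at 40.7%, 72.0%, 49.0%, 24.0% and 36.3% in either direction. GCNT1, which makes the core 2 branch of O-glycans, had a log2 fold change of 2.40 ± 0.049 with ACBI. With every other compound it fell, by -0.66 ± 0.051 with 2-77, -0.79 ± 0.051 with ENZA, -0.79 ± 0.052 with BD98 and -0.64 ± 0.052 with P-16. The edgeR adjusted p of GCNT1 were 5.25e-11 or lower. A4GALT, which makes the Gb3 glycolipid, rose by 2.25 ± 0.14 with ACBI (adjusted p 1.28e-14). Of 15 sialidases and lysosomal glycosidases, 4 rose and 2 fell with 2-77, 8 and 4 with ACBI, 6 and 3 with BD98, 3 and 0 with P-16 and 6 and 1 with ENZA. The sialidase NEU1 rose with ACBI (1.12 ± 0.051) and the beta-mannosidase MANBA with 2-77 (0.82 ± 0.058). For 12 nucleotide sugar transporters the counts were 1 and 4 with 2-77, 3 and 1 with ACBI, 3 and 2 with BD98, 1 and 0 with P-16 and 1 and 2 with ENZA, and SLC35A1, the carrier of CMP-sialic acid, rose with ACBI (1.01 ± 0.079). For 19 genes of glucosidases and quality control they were 3 and 6 with 2-77, 6 and 10 with ACBI, 4 and 6 with BD98, 3 and 5 with P-16 and 5 and 6 with ENZA. For 17 genes of Golgi tethering and acidity they were 1 and 6, 9 and 2, 5 and 7, 0 and 4 and 2 and 4 in the same order.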

How the data were processed

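Polyadenylated RNA from 18 LNCaP samples, 3 for each of 6 conditions, was sequenced after a stranded library preparation, per the labels' protocols. The table deposited by the authors holds expected counts, the estimated number of reads per gene, often with decimals (66.19% of values were whole within 0.001), not scaled to depth. STAR, Partek, DESeq2 and hg38 are named in the submitters' processing notes, without versions. The program that counted reads, its annotation and its use of strand are not given in the sources used here. By their names, SCO277 columns belong to 2-77 and PB_16 columns to P-16. Of all columns, 0 were left out.

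After rounding, the counts were analysed in edgeR 4.0.16 under R 4.3.3. The filter filterByExpr with the 6 groups left 15422 genes. TMM factors were used, and a robust quasi-likelihood model over all 18 libraries (12 residual degrees of freedom, common biological coefficient of variation 0.0573) gave two-sided F tests with Benjamini-Hochberg adjustment over all genes tested and a threshold of 0.05. Each SE was derived as the size of the log2 fold change divided by the root of its F value, and 95% intervals from it with the 12 degrees of freedom. The F tests also use degrees of freedom borrowed across genes, so these intervals are wider than the tests imply. For ST6GALNAC1 between 2-77 and ENZA the interval holds 0, whereas the edgeR p before adjustment was 0.0399. The script was tested on simulated data. Levels per kilobase used exon lengths of the GENCODE 29 basic annotation. Promoters came from RefSeq GRCh38.p14. Python 3.11.15 with pandas 2.3.3 and matplotlib 3.10.9 made tables and plots.

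The members and lists were chosen with earlier results of these data known. By the rule for naming, full values were given per contrast with DMSO for up to 6 rises and 6 falls at or above 1 CPM in the higher group and for members changed at least 2-fold, and of each related list for the genes with the 2 smallest p. The counts without GALNT12 and ST8SIA6 were added after their values were seen. Libraries were treated as unpaired: of 45 pairs of same-numbered libraries of different groups, 1 had residuals correlated above 0.1 (median -0.00109). Alternatives were DESeq2 1.42.0, RLE factors, library totals, no filter, a filter of at least 1 CPM in 3 libraries, only the groups compared, a replicate block and the removal of each library in turn. No molecular identifiers are stated, so floors cover only the counting error of the group at 0 counts.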

Additional observations from a re-analysis of the deposited data

How the results depend on the processing

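The counts of changed members stayed within 1.5 times of the reported count in all contrasts and alternatives except 1: between 2-77 and ENZA the count was 5 without ENZA replicate 1, 5 without ENZA replicate 2 and 5 without ENZA replicate 3, against 9, and it ran from 5 to 9 over the removal of each library. That range was 31 to 40 for 2-77, 40 to 43 for ACBI, 35 to 41 for BD98, 15 to 29 for P-16 and 27 to 35 for ENZA against DMSO. For P-16 the fit of only the groups compared gave 30 against 20. No alternative reversed the sign of a value that passed in the main fit or in that alternative. Of the single-gene values under alternatives, 20130 kept their side of the threshold, 479 lost and 152 gained a call. With library totals in place of TMM factors the median over all genes moved by less than 0.1 (log2) in every contrast. The samples share only a replicate number, and the replicate block gave 36 changed members with 2-77, 42 with ACBI, 40 with BD98, 19 with P-16 and 32 with ENZA; 1 of 45 same-numbered pairs correlated above 0.1. The cause of calls lost was not tested. Depth limits ST8SIA4, ST8SIA5, ST8SIA6, FUT9, GALNT16 and ST6GALNAC5, which rested on few counts per library.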

Other observations

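Among the related genes of glycosylation with the smallest p in a contrast, several moved with most compounds. EDEM3, which trims mannose from misfolded glycoproteins, had log2 fold changes of -0.64 ± 0.058 (SE) with 2-77, -0.37 ± 0.058 with ACBI, -0.82 ± 0.059 with BD98, -0.60 ± 0.059 with P-16 and -0.66 ± 0.058 with ENZA, with edgeR adjusted p of 2.09e-06 or lower. MCFD2, a partner of the cargo receptor LMAN1, ranged from -0.59 ± 0.043 with BD98 to -0.25 ± 0.043 with P-16. B4GALNT3, which makes the LacdiNAc unit, rose with 2-77 (0.82 ± 0.11), ACBI (0.67 ± 0.11), ENZA (0.66 ± 0.11), P-16 (0.63 ± 0.11) and BD98 (0.47 ± 0.11). B4GALNT1, which makes the gangliosides GM2 and GD2, changed by -1.24 ± 0.14 with BD98 (adjusted p 2.11e-08) and 0.61 ± 0.12 with P-16 (0.000351). PGM3, which acts just before UAP1 in the making of UDP-N-acetylglucosamine, had -0.79 ± 0.049 with BD98, -0.68 ± 0.048 with 2-77 and -0.57 ± 0.048 with ENZA, and -0.080 ± 0.047 with ACBI (adjusted p 0.129). The lysosomal fucosidase FUCA1 rose with ACBI (1.16 ± 0.060, adjusted p 1.38e-16). All 5 contrasts share the DMSO libraries.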
